A study of Drosophila melanogaster with 9 samples.

Results

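The heads of male flies carrying opposite alleles of *dLmo* were compared with each other directly. *EP1306* is a loss-of-function and *BxJ* a gain-of-function allele of this X-linked gene, whose probe sets are named *Bx* below. The comparison holds 6 of the 9 arrays of the study, chosen by the genotype in their titles, with 3 of *EP1306* and 3 of *BxJ*. The other 3 arrays hold the control line *w;iso*, which did not enter the test, and the values of these control heads are given below as levels only. All flies were untreated adults aged 2 to 3 days, the mutations had been outcrossed to a stock isogenic for chromosomes II and III, and each genotype is 1 fly line. Per the labels, 600 flies of a genotype were combined into 1 pool and the RNA was divided in 3 for hybridization to Affymetrix Drosophila oligonucleotide arrays, whereas the design text describes 3 pooled groups of 200 heads. Under the labels' description, the p-values below measure the spread between preparations of 1 pool and not between groups of flies.

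dLMO is a nuclear protein made almost entirely of LIM domains, which bind other proteins but not DNA. In the wing it takes up the cofactor Chip, which the LIM-homeodomain factor Apterus needs, and so limits the activity of Apterus. In the fly brain *dLmo* affects circadian and drug-related behavior, including the sedation of flies by ethanol, and the study looked for transcripts through which it could act there. A direct comparison of the 2 alleles asks which transcripts differ between loss and gain of its activity.

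The intensity of a probe set, a group of short oligonucleotides that reads 1 transcript or a few similar ones, was deposited on a linear scale. Differences are given as *EP1306* minus *BxJ* on the log2 scale after 16 was added to each intensity, and folds are folds of the intensity plus 16, which understates the change of dim probe sets. A probe set is called when its adjusted p by limma, over all probe sets, is below 0.05. The number of arrays limits the precision. Correlations across probe sets were 0.995 to 0.997 between *EP1306* arrays and 0.995 to 0.998 between *BxJ* arrays. The array medians were 16.2 to 16.4 in *EP1306* and 16.7 to 17.8 in *BxJ*, with no overlap. The spike-in controls averaged 8.88 to 9.78 on the *EP1306* arrays and 8.66 to 9.57 on the *BxJ* arrays on the log2 scale. The 6 photoreceptor markers measured averaged 13.3 to 13.4 on the *EP1306* arrays and 13.1 to 13.3 on the *BxJ* arrays, with no overlap, all 6 above 0 and *norpA* called, and the 5 neuronal markers averaged 8.51 to 8.65 and 8.48 to 8.58 on the same arrays. The neuronal markers differed in direction, with 2 above and 3 below 0, from -0.54 to 0.73, and none called. Of these 5, 3 had an unadjusted p under 0.05 by limma (10.1% of all probe sets). The genotypes did not overlap for 3 of the 5 (17.4% of all probe sets). In such bulk RNA, fewer cells of a type and less RNA per cell cannot be told apart.

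*dLmo* itself was lower in *EP1306* than in *BxJ* on both of its probe sets, by about the same amount. The brighter probe set read 176, 106 and 167 in *EP1306* heads, 676, 623 and 672 in *BxJ* heads, and 215, 202 and 115 in control heads. All *BxJ* arrays stood above all others, and the *EP1306* and control arrays overlapped. The log2 difference was -2.05 (standard error 0.18, 95% interval -2.48 to -1.62), or 4.13-fold, with an adjusted p of 0.00889 by limma and p = 0.1 by the two-sided exact permutation test, the lowest that 3 arrays against 3 allow. The dimmer probe set read 21.9, 22.5 and 22.4 in *EP1306* heads, 124, 157 and 156 in *BxJ* heads, and 38.9, 46.0 and 23.7 in control heads. Here the 3 genotypes did not overlap, with the control closer to *EP1306*. The log2 difference was -2.07 (standard error 0.12, 95% interval -2.35 to -1.79), or 4.21-fold (adjusted p = 0.00212 by limma and p = 0.1 by the exact permutation test). The call on the brighter probe set was lost without *BxJ* replicate 1 (adjusted p = 0.0567) and without *EP1306* replicate 3 (adjusted p = 0.0665), and that on the dimmer one was kept whichever of the 6 arrays was left out. The probe sets are not placed against the lesions of the alleles in the files, so a shorter or altered transcript was not tested.

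Of 18769 probe sets, 153 were called (0.815%), 60 higher (0.32%) and 93 lower (0.495%) in *EP1306* than in *BxJ*. After each array was centred on its median, 110 were higher and 108 lower, so the share of higher calls was 50.5% in place of 39.2%. The 153 name 127 genes, 52 higher and 75 lower, while 16 have no name in the annotation used here and 6 read several genes. Their median size was 0.82 on the log2 scale, 58 differed by at least 1 and 14 by at least 2, and among these largest ones 4 were higher and 10 lower in *EP1306*. The arrays of the 2 genotypes did not overlap for any of the 153, and the same held for 3275 probe sets in all (17.4%), 2130 with *EP1306* above (11.3%) and 1145 with *EP1306* below (6.1%). At an unadjusted p under 0.05 there were 1887 (10.1%), 979 higher (5.22%) and 908 lower (4.84%). Probe sets at an intensity of 1000 or more were called in 2.61% of cases and those under 50 in 0.156%. The plot of the difference against the level shows that the calls of *EP1306* below *BxJ* reach further from 0 than those above.

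**Figure D1:**
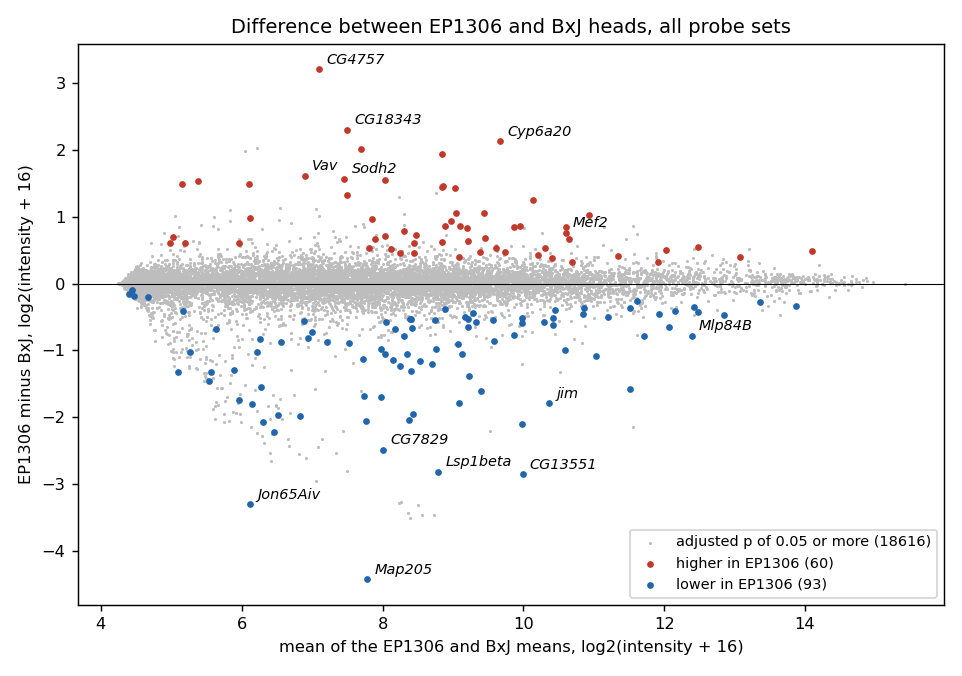
Difference between *EP1306* and *BxJ* (vertical axis, log2 of the intensity plus 16) against the mean level of both genotypes (horizontal axis, same scale), 1 point for each of 18769 probe sets. Red points are the 60 probe sets called higher and blue points the 93 called lower in *EP1306*. The lowest is *Map205* at -4.43 and *CG4757* highest at 3.21.

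The level in the control was not used for the calls and was set beside those of the mutants. For 82 of the 153 called probe sets (53.6%), the control arrays overlapped with the *BxJ* arrays and not with those of *EP1306*. They overlapped with the *EP1306* arrays alone for 19 (12.4%), with neither for 49 (32%) and with both for 3 (1.96%). Among all 3275 probe sets whose mutant arrays do not overlap, called or not, the shares were 21.8% for *BxJ* alone, 35.7% for *EP1306* alone, 8.64% for neither and 33.9% for both. By means, the control lay between the mutants for 93 of the called probe sets, above both for 44 and below both for 16. The largest set of called probe sets was thus the one on which the *EP1306* arrays alone stood apart, and the brighter *Bx* probe set is among the 19 on which the *BxJ* arrays did. No test was made of these shares.

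Among the genes with the largest rises in *EP1306*, *Cyp6a20* was the most precisely measured. It encodes a cytochrome P450 known for its influence on aggression between male flies. Its intensity was 1561, 1771 and 1726 in *EP1306* heads, 378, 362 and 375 in *BxJ* heads and 405, 371 and 273 in control heads. The *EP1306* arrays stood far above the 6 others, which overlapped. The log2 difference was 2.13 (standard error 0.06), or 4.38-fold (adjusted p = 0.000186).

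*CG4757* had the largest rise. It read 491, 346 and 373 in *EP1306* heads, 39.0, 24.6 and 24.6 in *BxJ* heads and 19.2, 21.4 and 17.8 in control heads. The transcript was thus bright in the loss-of-function flies alone, 9.24-fold above *BxJ* (log2 difference 3.21, standard error 0.18, adjusted p = 0.00215). *CG18343* followed the same order of genotypes, with 448, 350 and 363 in *EP1306* heads, 73.0, 71.2 and 52.8 in *BxJ* heads and 74.0, 47.5 and 22.3 in control heads. Its rise was 4.94-fold (log2 difference 2.31, standard error 0.14, adjusted p = 0.00303), and its *BxJ* and control arrays overlapped. *SkpB*, which encodes a relative of Skp1, the adaptor of SCF ubiquitin ligases, read 852, 827 and 849 in *EP1306* heads, 275, 320 and 308 in *BxJ* heads and 368, 338 and 371 in control heads. Its groups did not overlap, with *EP1306* 2.71-fold above *BxJ* (log2 difference 1.44, standard error 0.07, adjusted p = 0.00114). These calls and that of *Cyp6a20* were kept whichever of the 6 arrays was left out.

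For other risers it was the gain-of-function arrays that stood apart. *lncRNA:CR32553*, a noncoding RNA of the X chromosome, read 395, 374 and 424 in *EP1306* heads, 86.9, 72.8 and 103 in *BxJ* heads and 358, 290 and 384 in control heads. Only *BxJ* was low, and the log2 difference was 2.01 (standard error 0.12, 4.03-fold, adjusted p = 0.00263). *Sodh2*, which encodes a sorbitol dehydrogenase, read 268, 290 and 304 in *EP1306* heads, 84.7, 83.4 and 89.5 in *BxJ* heads and 281, 212 and 221 in control heads. Again *BxJ* stood below the overlapping arrays of the other genotypes, by 1.57 on the log2 scale from *EP1306* (standard error 0.08, 2.97-fold, adjusted p = 0.00114). *Vav* read 168, 184 and 230 in *EP1306* heads, 49.2, 49.0 and 58.4 in *BxJ* heads and 162, 189 and 193 in control heads. The order was that of *Sodh2*, with a log2 difference of 1.61 (standard error 0.13, adjusted p = 0.00874) that lost its call without *BxJ* replicate 1 (adjusted p = 0.0503) and without *EP1306* replicate 2 (adjusted p = 0.0658). A further probe set of *Vav*, at means of 109 in *EP1306* and 83.6 in *BxJ*, was not called (log2 difference 0.33, adjusted p = 0.266).

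The remaining large rises were those of *CG14853* (log2 difference 1.56), *CG31516* (1.49), *CG18265* (1.49), *CG9377* (1.46) and *plh* (1.45). *plh* read 651, 769 and 819 in *EP1306* heads, 253, 240 and 295 in *BxJ* heads and 262, 237 and 270 in control heads, so that only *EP1306* was high. *CG31516* read 28.9, 50.4 and 55.1 in *EP1306* heads and 5.15 to 5.66 on the 6 other arrays, close to the lowest values of the arrays. All of these calls rested on particular arrays. That of *CG9377* was lost without *EP1306* replicate 3 (adjusted p = 0.0531), that of *plh* without *EP1306* replicate 2 or 3 (adjusted p = 0.0636 and 0.0559) and that of *CG14853* without *EP1306* replicate 2 or *BxJ* replicate 1 (adjusted p = 0.067 and 0.0503). *CG31516* (adjusted p = 0.0739 to 0.118) and *CG18265* (adjusted p = 0.0644 to 0.118) lost theirs without any 1 of the arrays other than *EP1306* replicate 1.

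**Figure D2:**
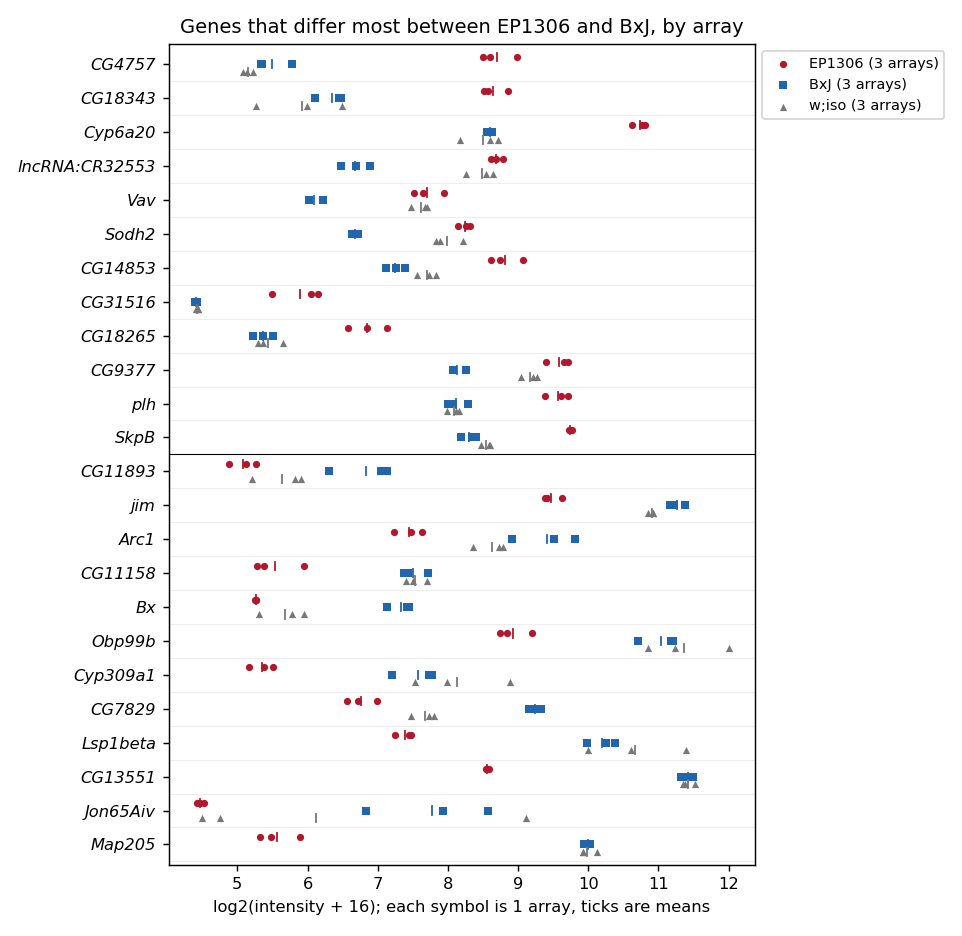
Level of the 12 genes with the largest rises (above the line) and the 12 with the largest falls (below it) in *EP1306* relative to *BxJ*, as log2 of the intensity plus 16 (horizontal axis). Each symbol is 1 array (red circles *EP1306*, blue squares *BxJ*, grey triangles the control *w;iso*) and ticks are means of 3. No red circle overlaps with the blue squares of its gene, and the control arrays of *Jon65Aiv* spread from 4.50 to 9.11.

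The falls in *EP1306* were larger. *Map205* encodes a microtubule-associated protein that binds the mitotic kinase Polo. It read 28.5, 24.2 and 43.3 in *EP1306* heads, 1030, 966 and 1014 in *BxJ* heads and 954, 1098 and 954 in control heads. The *BxJ* and control arrays overlapped at a high level, and *EP1306* was 21.5-fold below *BxJ* (log2 difference -4.43, standard error 0.15, adjusted p = 0.000343), the largest difference of all called probe sets. *CG13551*, which is related to the inhibitor of the mitochondrial ATP synthase, had the smallest p of all. It read 359, 366 and 362 in *EP1306* heads, 2752, 2549 and 2854 in *BxJ* heads and 2913, 2646 and 2590 in control heads. The arrays of each genotype were within a narrow range, and *EP1306* was 7.22-fold below *BxJ* (log2 difference -2.85, standard error 0.05, adjusted p = 3.96e-05). A further probe set of *CG13551* read about 5 in both genotypes and was not called (adjusted p = 0.733).

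*jim*, which encodes a zinc finger protein, read 664, 652 and 773 in *EP1306* heads, 2284, 2379 and 2656 in *BxJ* heads and 1839, 1933 and 1934 in control heads. The 3 genotypes did not overlap, and the log2 difference was -1.79 (standard error 0.09, 3.45-fold, adjusted p = 0.00117). The other probe sets of *jim* were dimmer and not called, with means of 146 and 378 in *EP1306* and 165 and 398 in *BxJ*. *CG7829* read 89.7, 78.9 and 111 in *EP1306* heads, 557, 593 and 623 in *BxJ* heads and 208, 161 and 196 in control heads. Its 3 genotypes did not overlap, with *BxJ* highest and *EP1306* lowest. Its log2 difference was -2.48 (standard error 0.12, 5.60-fold, adjusted p = 0.00114) and -1.98 on a second, dimmer probe set (adjusted p = 0.00764), which was not called without *EP1306* replicate 2 or 3 (adjusted p = 0.0648 and 0.0681). The calls of *Map205*, *CG13551*, *jim* and the brighter *CG7829* probe set were kept whichever of the 6 arrays was left out.

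*Arc1* encodes a protein related to retroviral Gag that forms capsids and carries RNA between cells of the nervous system. Its brighter probe set read 1441, 1830 and 1789 in *EP1306* heads, 5267, 5215 and 4663 in *BxJ* heads and 5460, 5394 and 4073 in control heads. *EP1306* stood below the other genotypes, which overlapped (log2 difference from *BxJ* -1.58, standard error 0.10, adjusted p = 0.00396). The dimmer probe set read 135, 183 and 162 in *EP1306* heads, 881, 710 and 464 in *BxJ* heads and 407, 425 and 312 in control heads. The direction was the same, with a log2 difference of -1.96 and a wider error (standard error 0.24, adjusted p = 0.0303). That call was lost without any 1 of the arrays other than *BxJ* replicate 3 (adjusted p = 0.0806 to 0.158). *CG11158* and *CG11893* fell by similar amounts (log2 differences -1.97 and -1.74, adjusted p = 0.0164 and 0.0464). *CG11158* read 46.0, 22.8 and 25.5 in *EP1306* heads, 156, 150 and 194 in *BxJ* heads and 153, 165 and 193 in control heads, while *CG11893* averaged 18.1, 101 and 35.1 in the same order. Without 1 array, *CG11158* was called only when *EP1306* replicate 1 was left out and *CG11893* only when *BxJ* replicate 3 was, with adjusted p up to 0.115 and 0.186 otherwise. In all, 18 genes with a called probe set had others, which were called too in 4 (*Arc1*, *Bx*, *CG7829* and *Nepl11*) and of the same sign in 12.

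A transcript of the fat body, the tissue of storage and secretion that also surrounds the brain, was among the largest falls. *Lsp1beta*, which encodes a larval serum protein, read 136, 161 and 158 in *EP1306* heads, 1205, 1311 and 991 in *BxJ* heads and 2671, 1541 and 1005 in control heads. *EP1306* alone was low, 7.04-fold below *BxJ* (log2 difference -2.82, standard error 0.12, adjusted p = 0.00113). It was the only call among 19 measured genes for fat body, yolk and larval serum proteins (0.617% of all genes were called lower). Of the 19, 15 were below 0 and 4 above, with a median of -0.27 against 0.01 over all 11985 genes. By limma, 6 had an unadjusted p under 0.05 (10.1% of all probe sets). The genotypes did not overlap for 7 (17.4% of all probe sets). The 6 fat body markers, all below 0 and none called, averaged 7.49 to 7.72 on the *EP1306* arrays and 7.87 to 8.52 on the *BxJ* arrays. Their summed intensity was 12938 to 15755 in *EP1306* and 15138 to 16984 in *BxJ*, and *Fbp1* was near the floor in both, at means of 4.64 and 4.65. The part of the amount of fat body in the fall of *Lsp1beta* was not tested.

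*Cyp309a1* and *Obp99b* fell with a similar pattern across the arrays. *Obp99b*, which encodes an odorant-binding protein, read 571, 442 and 413 in *EP1306* heads, 2359, 2293 and 1653 in *BxJ* heads and 4076, 2403 and 1837 in control heads. *Cyp309a1*, which encodes a cytochrome P450, read 25.5, 20 and 29.6 in *EP1306* heads, 197, 203 and 131 in *BxJ* heads and 457, 238 and 169 in control heads. For both genes *EP1306* alone was low and the control arrays were spread widely. The log2 differences were -2.10 (standard error 0.18) and -2.22 (standard error 0.19), each with an adjusted p of 0.00875. Without *EP1306* replicate 2 or 3 the adjusted p of *Obp99b* was 0.0681 and 0.0759 and that of *Cyp309a1* 0.0648 and 0.0663, and *Cyp309a1* also lost its call without *BxJ* replicate 1 (adjusted p = 0.0503).

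In the families of these enzymes and carriers, few members were called. Of 83 cytochrome P450 genes, 1 rose (*Cyp6a20*) and 3 fell (*Cyp309a1*, *Cyp6d2* and *Cyp4p1*), against 1.03% of all genes called (0.417% higher and 0.617% lower). The P450 median was -0.01 and became 0.03 after median centring. *Cyp6d2* read 53.4, 55.9 and 51.3 in *EP1306* heads and 98.1, 125 and 115 in *BxJ* heads (log2 difference -0.88, adjusted p = 0.0315), and *Cyp4p1* differed by -0.51 (adjusted p = 0.0472). Without any 1 of the 6 arrays *Cyp6d2* was no longer called (adjusted p = 0.0693 to 0.129), and *Cyp4p1* was called only without *EP1306* replicate 1 (adjusted p = 0.111 to 0.19 without the others). Of 35 UDP-glycosyltransferases, which add sugars to small molecules, *Ugt35B1* fell. It read 242, 178 and 185 in *EP1306* heads, 535, 504 and 514 in *BxJ* heads and 646, 591 and 505 in control heads, with a log2 difference of -1.31 (standard error 0.12, adjusted p = 0.0102) that was not called without *BxJ* replicate 1, *EP1306* replicate 2 or *EP1306* replicate 3 (adjusted p = 0.0664, 0.0648 and 0.0788). By limma, none of 34 glutathione S-transferases was called (7 at an unadjusted p under 0.05, 0 by the methods' t-test after adjustment). Of 48 odorant-binding proteins, *Obp99b* and *Obp56e* fell, the second by 0.43 on the log2 scale (log2 difference -0.43, adjusted p = 0.0303), with no call without any 1 of the arrays (adjusted p = 0.0588 to 0.142). By limma, none of 166 chemoreceptors was called (2 at an unadjusted p under 0.05, 0 by the adjusted t-test). At that unadjusted p the share over all probe sets was 10.1%, with the glutathione S-transferases above it and the chemoreceptors below. Of 107 cuticle proteins, *Cpr47Ee* rose (log2 difference 0.64, adjusted p = 0.021) and *Cpr76Bd* and *Cpr49Ae* fell (log2 differences -1.06 and -0.46, adjusted p = 0.0331 and 0.0127). When 1 array was left out, *Cpr47Ee* was called only without *EP1306* replicate 2, *Cpr76Bd* only without *BxJ* replicate 2 and *Cpr49Ae* only without *EP1306* replicate 1 or *BxJ* replicate 3, with adjusted p up to 0.158 otherwise.

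The muscle list holds 24 measured genes, of which 4 fell in *EP1306* and none rose, against 0.617% of all genes lower and 0.417% higher. *Mlp84B*, a LIM protein of the Z-disc, read 3885, 4121 and 4230 in *EP1306* heads, 6847, 6811 and 7382 in *BxJ* heads and 6672, 6634 and 7236 in control heads. *EP1306* was the low genotype, 1.72-fold below *BxJ* (log2 difference -0.78, standard error 0.05, adjusted p = 0.00396), and the call was kept without any 1 array. *Act88F*, the actin of the flight muscle, read 2459, 2481 and 2698 in *EP1306* heads, 3872, 4503 and 4880 in *BxJ* heads and 4240, 4625 and 4704 in control heads. *TpnC73F*, a troponin C, read 132, 132 and 116 in *EP1306* heads, 244, 339 and 310 in *BxJ* heads and 300, 232 and 224 in control heads. The *BxJ* and control arrays overlapped for both genes, with *EP1306* below them. *Act88F* differed from *BxJ* by -0.79 (adjusted p = 0.025), *TpnC73F* by -1.13 (adjusted p = 0.0239) and *Act87E*, a further muscle actin, by -0.33 (adjusted p = 0.0303). These calls were weaker: without 1 array, adjusted p reached 0.128 for *Act88F*, 0.129 for *TpnC73F* and 0.136 for *Act87E*. *Act88F* kept its call without *BxJ* replicate 1 or 3, *TpnC73F* without *BxJ* replicate 1, and *Act87E* lost it without any 1 of the 6. A further probe set of *TpnC73F*, near the lowest intensities in both genotypes, was not called (log2 difference 0.02, adjusted p = 0.735 by limma). Of the 24 muscle genes, 9 were above and 15 below 0, with a median of -0.03. With quantile normalization 4 were above and 20 below 0 (median -0.06), and after median centring 12 were above and 12 below (median 0.01). The 5 muscle markers averaged at most 12.70 on the *EP1306* arrays and at least 12.91 on the *BxJ* arrays on the log2 scale, with no overlap. Among these markers *Mlp84B* and *Act88F* were called, and the other 3 lay between 0.01 and 0.10 (4 of the 5 markers were below 0 with quantile normalization). The part of the amount of muscle in these falls was not tested.

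*Mef2*, which encodes a transcription factor of muscle differentiation that also acts in neurons, moved the other way from the muscle genes that were called. It read 1985, 1942 and 2101 in *EP1306* heads, 1137, 1242 and 1161 in *BxJ* heads and 1269, 1260 and 1148 in control heads. Only *EP1306* was high, 1.69-fold above *BxJ* (log2 difference 0.76, standard error 0.05, adjusted p = 0.00456), and the call was kept without any 1 array. *Mef2* was on a list of 33 genes with known roles in ethanol behavior, on which *Bx* was the only other call. On that list 10 had an unadjusted p under 0.05 by limma, against 10.1% of all probe sets. Of 9 genes of ethanol and sugar alcohol metabolism, *Sodh2* was called. Here 6 of the 9 were below 0 and 3 above, with a median of -0.15, and 7 had an unadjusted p under 0.05 by limma. The share of calls over all genes was 1.03%.

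*dAlk*, the receptor tyrosine kinase that the study followed up, did not pass the adjusted threshold between the alleles. It read 435, 456 and 596 in *EP1306* heads, 322, 352 and 339 in *BxJ* heads and 361, 402 and 410 in control heads. The *EP1306* arrays lay above the others and the *BxJ* arrays below them, with no overlap, which was so for 11.3% of all probe sets between *EP1306* and *BxJ* in this direction. The log2 difference was 0.52 (standard error 0.12, 95% interval 0.22 to 0.82), or 1.43-fold, with an adjusted p of 0.2 by limma and p = 0.1 by the exact permutation test. The difference lay between 0.38 and 0.60 when 1 array was left out. Unadjusted, the p of *dAlk* was 0.00523 by limma. With the methods' t-test at p under 0.05 and no adjustment, *dAlk* passed, as did 1660 probe sets in all. *jeb*, which encodes the ligand of the receptor, read 15.1, 16 and 18.6 in *EP1306* heads, 15.7, 12.5 and 15.6 in *BxJ* heads and 17.4, 16 and 25.1 in control heads. These intensities were at the level of the array medians, and the genotypes overlapped (log2 difference 0.09, 95% interval -0.07 to 0.25, adjusted p = 0.708 by limma, exact permutation p = 0.4). By limma, none of 18 genes of ALK, its ligand and the ERK cascade was called (4 at an unadjusted p under 0.05, 0 by the adjusted t-test), with 11 above and 7 below 0 and a median of 0.05. The unadjusted share over all probe sets was 10.1%. Of 18 LIM-domain factors and partners of dLMO, *Bx* was the only call, and the others lay between -0.16 (*Lim1*) and 0.33.

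Of the lists of eye and nervous system genes counted here, only phototransduction held a call, against 1.03% of all genes called. Of 23 phototransduction genes, *norpA*, which encodes the phospholipase C of the light response, rose. It read 6827, 6681 and 7212 in *EP1306* heads, 4690, 4533 and 4983 in *BxJ* heads and 6335, 6846 and 7194 in control heads. Only *BxJ* was low, and the log2 difference was 0.54 (standard error 0.05, adjusted p = 0.0127), not called without *EP1306* replicate 2, *EP1306* replicate 3, *BxJ* replicate 1 or *BxJ* replicate 2 (adjusted p = 0.0553 to 0.0796). The other members did not pass the adjusted threshold. By limma, 8 of the 23 had an unadjusted p under 0.05 (10.1% of all probe sets). The genotypes did not overlap for 12 of them (17.4% of all probe sets). Altogether 19 of the 23 were above 0, with a median of 0.12, and the nearest to the threshold were *rtp* (0.28, adjusted p = 0.068), *santa-maria* (0.23, adjusted p = 0.0699) and *rdgB* (0.50, adjusted p = 0.074). *Galphaq*, the G protein of the same cascade, was called on a probe set with means of 749 in *EP1306* and 353 in *BxJ* (log2 difference 1.05, adjusted p = 0.0349), and not on a brighter (0.19, adjusted p = 0.312) or a dimmer one (0.69, adjusted p = 0.325). The call was lost without any 1 of the arrays other than *BxJ* replicate 3 (adjusted p = 0.0628 to 0.13). By limma, none of the 25 genes of synaptic vesicle release, 28 neuropeptides, 37 ion channels, 25 genes of monoamine signalling, 58 Ig-type recognition genes, 18 clock genes or 18 eye pigment and white-type transporters was called, with medians between 0.01 and 0.11. At an unadjusted p under 0.05 there were 8, 8, 4, 2, 5, 2 and 3 in these lists, and 0 by the adjusted t-test in each. The share over all probe sets was 10.1% at that p. The neuropeptide gene *AstC* came nearest (0.58, adjusted p = 0.0562).

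**Figure D3:**
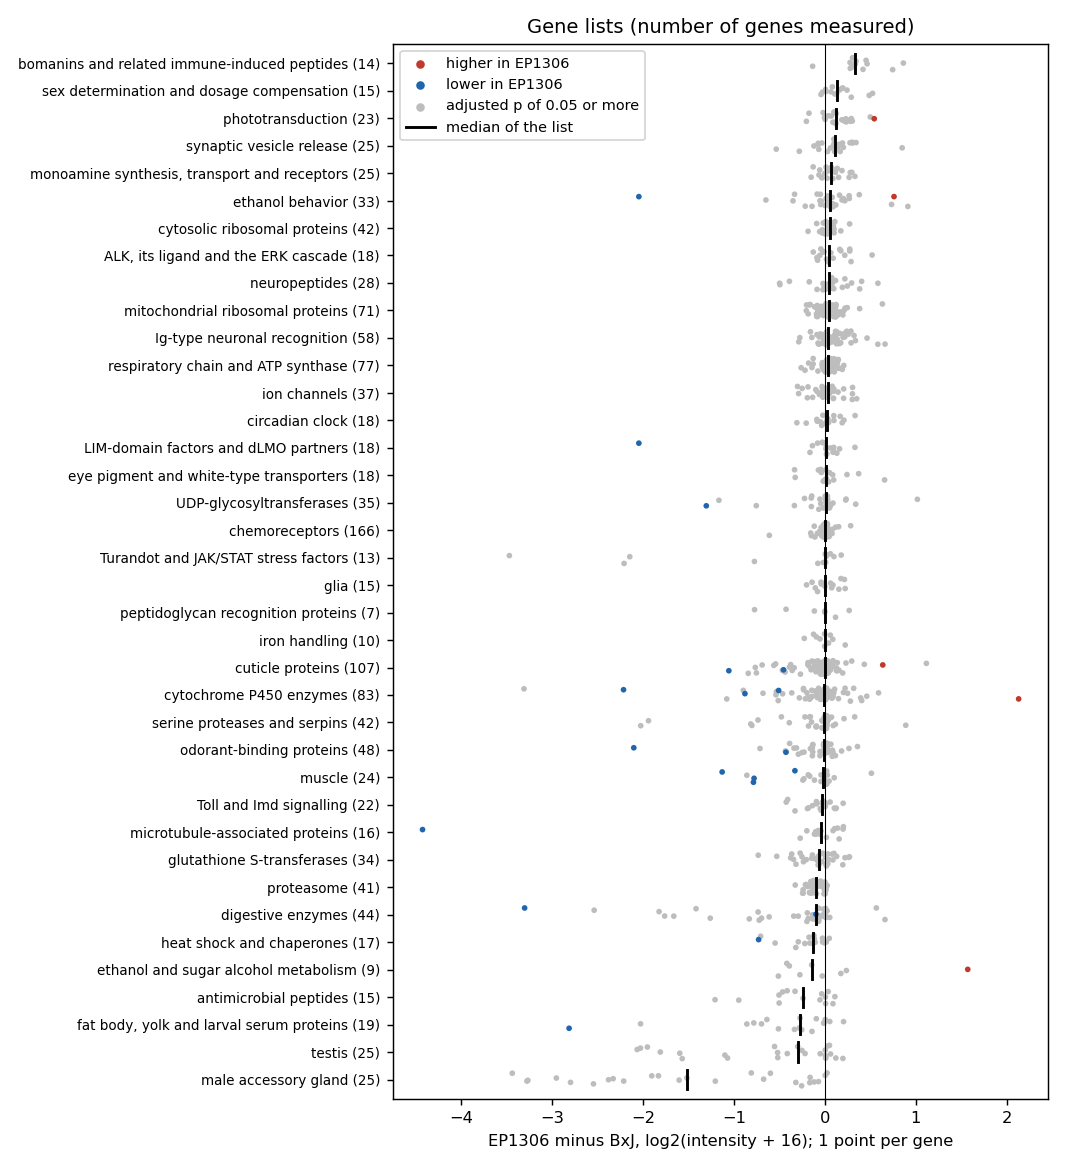
Difference between *EP1306* and *BxJ* (horizontal axis, log2 of the intensity plus 16) for the measured genes of 38 lists, 1 point for each gene and 1 row for each list, ordered by the median (black bar). Red and blue points were called. Most medians lie near 0, that of the male accessory gland lies at -1.52 with none of its 25 genes called, and *Map205* is the blue point at the far left.

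Defense genes gave no call between the alleles. By limma, 0 of 15 antimicrobial peptides, 14 bomanins and related peptides, 7 peptidoglycan recognition proteins, 22 genes of Toll and Imd signalling and 13 Turandot and JAK/STAT stress factors were called, against 6, 10, 3, 2 and 6 at an unadjusted p under 0.05 and 0 by the adjusted t-test. Over all probe sets, 10.1% had an unadjusted p under 0.05. Toll and Imd signalling was near that share, and the other defense lists were above it. Among antimicrobial peptides, 10 were below and 5 above 0 (median -0.24), with *DptB*, a diptericin, at -1.21 (adjusted p = 0.151). The bomanins went the other way, with 13 of the 14 above 0 (median 0.33) and *BomBc3* at 0.86 (adjusted p = 0.0702). The humoral stress factors *TotA* and *TotC* differed by -2.15 and -2.21 without passing the test (adjusted p = 0.214 and 0.223). Their list of 13 ran from -3.47 to 0.18, with 7 above and 6 below 0 and a median of 0.004. Of 17 heat shock genes and chaperones, 15 were below 0 (median -0.14) and 6 had an unadjusted p under 0.05 by limma. *Hsp68* was called, against 1.03% of all genes. It read 86.2, 85.5 and 77.8 in *EP1306* heads, 161, 148 and 137 in *BxJ* heads and 112, 123 and 101 in control heads. The genotypes did not overlap (log2 difference -0.73, adjusted p = 0.0323), but the call was lost without any 1 array (adjusted p = 0.0684 to 0.138). Housekeeping groups had no calls by limma. The 42 cytosolic and 71 mitochondrial ribosomal proteins had medians of 0.05 and 0.04 (2 and 8 at an unadjusted p under 0.05, 0 and 1 by the adjusted t-test), the 77 genes of the respiratory chain and ATP synthase 0.04 (13 and 0) and the 41 proteasome genes -0.09 (6 and 0). The lists of 15 glial genes (3 at an unadjusted p under 0.05), 15 genes of sex determination and dosage compensation (3), 10 genes of iron handling (1) and 42 serine proteases and serpins (5) had no call either, nor any by the adjusted t-test, and of 16 microtubule-associated proteins *Map205* was the only call.

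Some arrays held transcripts of organs outside the head. The 10 male accessory gland markers averaged 6.86, 4.95 and 4.80 in *EP1306* heads, 7.22, 6.49 and 8.80 in *BxJ* heads and 4.77, 6.33 and 4.96 in control heads. *EP1306* replicate 1 and control replicate 2 were high within their genotypes, and *BxJ* replicate 3 was the highest array of all. All 10 markers were below 0, with a median of -2.08, and none was called (5 at an unadjusted p under 0.05, 0 by the adjusted t-test). The summed intensity of the 10 ran from 129 to 1680 in *EP1306* and from 1132 to 6423 in *BxJ*. The 10 testis markers, with a median of -0.81, and the 9 midgut markers, with a median of -0.73, were also without calls (5 and 5 at an unadjusted p under 0.05) and highest on *BxJ* replicate 3 among these 6 arrays. Midgut markers averaged 5.38, 5.17 and 5.24 in *EP1306* heads, 6.32, 5.76 and 6.68 in *BxJ* heads and 5.33, 6.77 and 5.51 in control heads. Over all probe sets, 10.1% had an unadjusted p under 0.05 by limma. Markers and lists were counted on probe sets of 1 gene. A probe set shared by the midgut markers *Amy-p* and *Amy-d* is therefore outside these counts. It was called lower in *EP1306*, and lost its call in 1 of the 6 fits without 1 array (adjusted p = 0.0514 by limma).

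**Figure D4:**
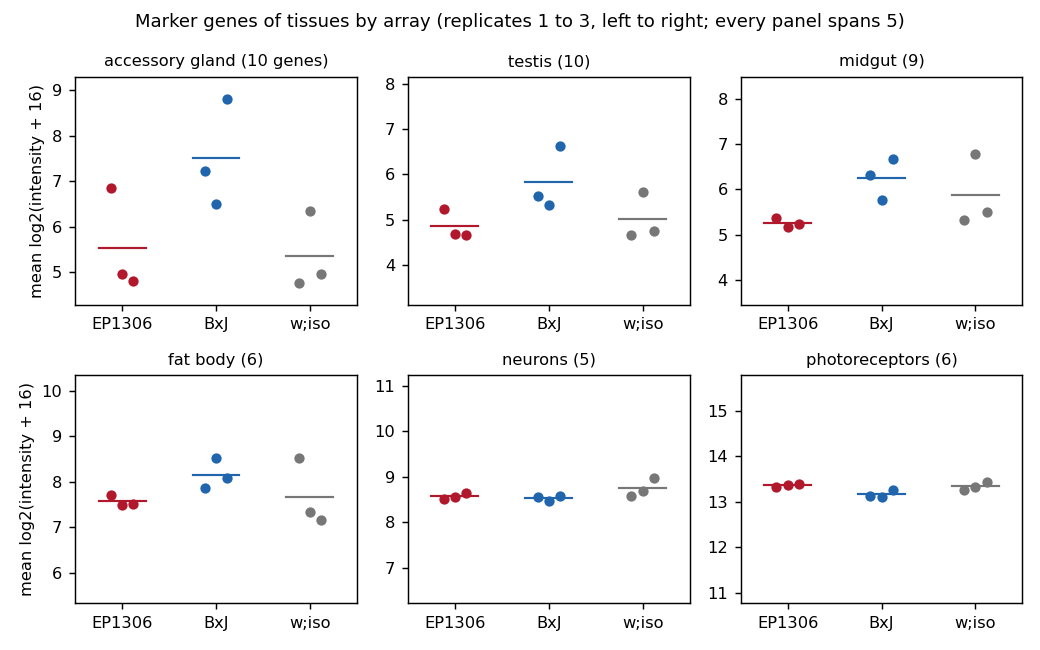
Mean level of marker genes of 6 tissues on each array (vertical axis, log2 of the intensity plus 16, mean over the number of genes in brackets), with *EP1306*, *BxJ* and *w;iso* from left to right and a line at the mean of 3 arrays. The accessory gland markers vary from 4.77 to 8.80 between arrays, the photoreceptor markers from 13.1 to 13.4 and the neuron markers from 8.48 to 8.98.

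Some genes of the digestive enzyme list are also midgut markers. *Jon65Aiv*, which encodes a serine protease of the midgut, read 5.39, 6.90 and 6.18 in *EP1306* heads, 227, 97.7 and 363 in *BxJ* heads and 6.63, 537 and 10.9 in control heads. It was high on the arrays on which the midgut markers were high, control replicate 2 included, and near the lowest intensities on the others. The log2 difference was -3.30 (standard error 0.42, adjusted p = 0.0331), which was not called with all 9 arrays in the fit (adjusted p = 0.326), with quantile normalization (adjusted p = 0.0565) or without *EP1306* replicate 1, 2 or 3 or *BxJ* replicate 1 (adjusted p = 0.092 to 0.168). The part of gut tissue in it was not tested. Of 44 digestive enzymes, 35 were below 0 (median -0.10) and 2 were called, against 1.03% of all genes. By limma, 17 had an unadjusted p under 0.05 (10.1% of all probe sets). The genotypes did not overlap for 21 (17.4% of all probe sets). The other call was *Mal-A8*, which lay between 4.79 and 6.74 on all 6 arrays (log2 difference -0.10, adjusted p = 0.0413). These values are near the lowest of the arrays, and the call was lost without any 1 of the 6 (adjusted p = 0.0742 to 0.159) and after median centring (adjusted p = 0.224). Without the array of each genotype richest in accessory gland transcripts (*EP1306* replicate 1 and *BxJ* replicate 3), a choice made after seeing the data, 274 probe sets were called, 83 higher and 191 lower, and 106 of the 153 were among them. The part of these tissues in the count was not tested.

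Since *dLmo* is X-linked and the isogenic stock fixes only chromosomes II and III, the calls were placed on the chromosomes. On the X chromosome 19 of 1887 genes were called (1.01%), against 0.991% on 2L, 0.898% on 2R, 0.89% on 3L and 1.34% on 3R, where 11 genes rose and 29 fell. Within 2 Mb of *Bx*, with *Bx* left out, 5 of 381 genes were called (1.31%), against 0.864% of the 1505 genes on the rest of the X chromosome. *lncRNA:CR32553* lies 0.39 Mb to one side of *Bx* and *Vav* 0.75 Mb to the other. *Pp2B-14D*, a catalytic subunit of the phosphatase calcineurin, read 925, 1033 and 1010 in *EP1306* heads, 484, 414 and 508 in *BxJ* heads and 995, 1002 and 1163 in control heads. *CG4991*, a predicted amino acid transporter, read 624, 603 and 611 in *EP1306* heads, 913, 890 and 892 in *BxJ* heads and 642, 681 and 526 in control heads. For both of these, as for *lncRNA:CR32553* and *Vav*, *BxJ* alone stood apart and the other genotypes overlapped. *Pp2B-14D* rose by 1.06 on the log2 scale in *EP1306* relative to *BxJ* (standard error 0.09, adjusted p = 0.00875) and *CG4991* differed by -0.54 (standard error 0.04, adjusted p = 0.00641). *Pp2B-14D* lost its call without *BxJ* replicate 1, *EP1306* replicate 2 or *EP1306* replicate 3 (adjusted p = 0.0503, 0.067 and 0.0768) and *CG4991* without *BxJ* replicate 1 or *EP1306* replicate 2 (adjusted p = 0.0503 and 0.0544). The last of the 5, *S6KL*, which encodes a kinase related to S6 kinase, read 519, 533 and 618 in *EP1306* heads, 356, 376 and 329 in *BxJ* heads and 568, 390 and 395 in control heads (log2 difference 0.63, adjusted p = 0.0437). Its call was lost without any 1 array (adjusted p = 0.0742 to 0.174). A sequence difference near *Bx* that came with an allele and an effect of the allele on these genes cannot be told apart.

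**Figure D5:**
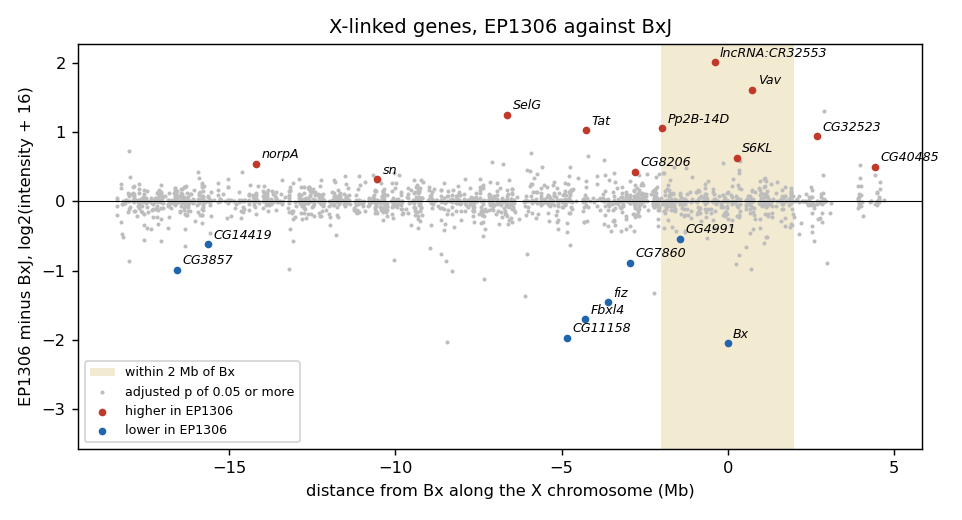
Difference between *EP1306* and *BxJ* (vertical axis, log2 of the intensity plus 16) of the genes of the X chromosome against their distance from *Bx* (horizontal axis, Mb), with the 2 Mb to each side shaded. Of the 19 called genes (red higher, blue lower in *EP1306*), *Bx* and 5 others lie in the shaded part.

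Farther along the X chromosome, *SelG*, which encodes a selenoprotein, read 1744, 1630 and 1826 in *EP1306* heads, 784, 643 and 728 in *BxJ* heads and 1664, 1544 and 1457 in control heads. *BxJ* alone was low (log2 difference 1.26, standard error 0.08, adjusted p = 0.00396). *Fbxl4*, which encodes an F-box protein with leucine-rich repeats, read 112, 126 and 137 in *EP1306* heads, 429, 446 and 446 in *BxJ* heads and 571, 622 and 655 in control heads. *CG3857* read 1041, 1074 and 1121 in *EP1306* heads, 2145, 2186 and 2128 in *BxJ* heads and 2067, 2167 and 2364 in control heads. For these 2 genes it was *EP1306* that was lowest, with log2 differences from *BxJ* of -1.70 (standard error 0.08) and -0.99 (standard error 0.04) and an adjusted p of 0.00114 each. All 3 calls were kept whichever of the 6 arrays was left out. A dimmer probe set of *CG3857*, with means of 27.4 in *EP1306* and 25.7 in *BxJ*, was not called (log2 difference 0.05, adjusted p = 0.827 by limma). The other calls on the X chromosome lay between -1.97 (*CG11158*) and 1.02 (*Tat*).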

How the data were processed

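RNA from male heads was measured on 9 Affymetrix Drosophila arrays, of which the 3 of *EP1306* and the 3 of *BxJ* were compared. The authors deposited intensities on a linear scale, made with MAS5. Its version and any scaling between arrays are not stated in the labels or the methods. The 183 control probe sets of 18952 were dropped. The log2 of intensity plus 16 was analysed unscaled, since array medians on that scale differed by 0.0818 at most. All *EP1306* medians lay below all *BxJ* medians, so this small offset falls along the comparison. Groups were fitted with limma 3.58.1 in R 4.3.3 (lmFit and trended eBayes, prior degrees of freedom 2.12), with Benjamini-Hochberg adjustment across the 18769 remaining probe sets. The fit was also run on simulated data with independent noise, which cannot show how it behaves under effects shared by an array or a pool. For *Alk*, *jeb* and *Bx*, a two-sided exact permutation test over the arrays was added.

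The array annotation names 1 gene for 13646 probe sets and several for 402, a supplementary table of the study alone names 34 (among them *Bx*, *norpA*, *Mef2* and *Lsp1beta*), and 4687 are unnamed. A RefSeq gene table (Release 6 assembly) gave chromosomes and distances from *Bx*. For lists and chromosomes, the probe set with the highest mean stood for a gene. Genes named are the 12 largest rises and falls among called probe sets of 1 gene, *Bx*, *Alk* and *jeb* (*w* is not analysed here), up to 4 members of each of 38 gene lists and of the tissue markers with the smallest p, called genes within 2 Mb of *Bx*, and genes with several called probe sets. *Galphaq*, *SelG*, *Fbxl4*, *CG3857* and the genes of the closing observations were picked with their values in view. The members and lists were chosen with earlier results of these data known. Settings varied were the pseudocount (1 or 64), scaling (quantile or median), a low-intensity filter, an untrended prior, all 9 arrays in the fit, the replicate number as a block, leaving out each array, the methods' t-test, and, chosen after seeing the data, leaving out the array of each genotype richest in accessory gland transcripts and the spike-in intensity as a covariate.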

Additional observations from a re-analysis of the deposited data

How the results depend on the processing

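The 153 calls (60 higher and 93 lower in *EP1306*) varied in number with the processing. Of 63 named results followed through the alternatives, none changed sign. Most list members named without a call were not followed. Pseudocounts of 1 and 64 called 170 and 137 probe sets, quantile normalization 124 and no intensity trend 140. Median centring called 218, 110 higher and 108 lower, 146 of them shared, and the medians of the lists for P450 enzymes, odorant-binding proteins, cuticle, muscle, glia, iron handling, serine proteases, peptidoglycan recognition and Toll and Imd signalling, all between -0.03 and 0, became positive. Testing only probe sets with a mean intensity of 50 or more called 334 (138 higher, 196 lower, 136 shared), with fewer probe sets tested. With all 9 arrays in the fit 230 were called (104 higher, 126 lower, 132 shared). Leaving out 1 array gave 35 to 105 calls (16 to 48 higher, 19 to 62 lower): 105, 35 and 41 when the array left out was *EP1306* replicate 1, 2 or 3, and 47, 78 and 100 when it was *BxJ* replicate 1, 2 or 3, with fewer samples in each. The methods' t-test gave 1660 at p under 0.05 (989 higher, *dAlk* among them, and 671 lower) and 25 after Benjamini-Hochberg (12 higher, 13 lower). Without the accessory-gland-rich arrays 274 were called (83 higher, 191 lower), and 37 (15 higher, 22 lower) after a covariate for the intensity of the spike-in controls was added, both chosen after seeing the data. The cause was not tested. Of 61 named calls, 48 were lost with the methods' t-test after Benjamini-Hochberg (among them *CG4757*, *CG18343*, *Vav* and the brighter *Bx* probe set), 37 with the spike-in covariate, 16 to 39 when 1 array was left out, 13 with quantile normalization, 11 with no intensity trend, 9 without the accessory-gland-rich arrays, 6 and 1 with pseudocounts of 64 and 1, 5 with all 9 arrays (*Jon65Aiv*, *Cyp6d2*, *Cyp4p1*, *S6KL* and *fiz*) and 1 with median centring (*Mal-A8*). Those lost with quantile normalization were *Jon65Aiv*, *CG11893*, *Hsp68*, *Cyp6d2*, *Cyp4p1*, *Cpr76Bd*, *TpnC73F*, *Act88F*, *Act87E*, *Mal-A8*, *CG7860*, *sn* and the dimmer *Arc1* probe set.

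With the replicate number as a block 97 were called (41 higher, 56 lower, 77 shared), and 19 of the named calls were lost. Arrays of 1 number share only that number: the correlations of their deviations were -0.08, 0.19 and -0.11, and not every array correlated best with its own number. Depth is not defined for arrays, and probe sets at an intensity under 50 gave 17 of the 153 calls from 10879 tested.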

Other observations

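Some called genes outside the lists act in metabolism or signalling. *AOX1*, an aldehyde oxidase, averaged 184 in *EP1306*, 452 in *BxJ* and 473 in *w;iso* (log2 difference -1.23, adjusted p = 0.00531 by limma). *Jhbp7*, a predicted juvenile hormone binding protein, differed by -1.15 (adjusted p = 0.00263). Both calls were kept whichever of the 6 arrays was left out. *Nepl11*, which is related to the peptidase neprilysin, differed by -1.05 and -0.76 on its probe sets (adjusted p = 0.00889 and 0.0111), and both calls were lost without *EP1306* replicate 2, *EP1306* replicate 3 or *BxJ* replicate 1 (adjusted p = 0.0503 to 0.0779).

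*Tat*, tyrosine aminotransferase, averaged 2775 in *EP1306*, 1360 in *BxJ* and 1682 in *w;iso* (log2 difference 1.02, adjusted p = 0.016 by limma). Its call was lost without *EP1306* replicate 2, *EP1306* replicate 3 or *BxJ* replicate 2 (adjusted p = 0.0862, 0.109 and 0.0629). *mthl8*, a receptor of the Methuselah family, averaged 5.54 in *EP1306*, 38.1 in *BxJ* and 6.0 in *w;iso*, so that it was measured above the lowest intensities in *BxJ* alone (log2 difference -1.32, adjusted p = 0.00598), a call lost without *EP1306* replicate 2 or 3 (adjusted p = 0.0614 and 0.0665). A dimmer probe set of *mthl8* was not called (log2 difference -0.36, adjusted p = 0.183 by limma).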
